A study of Arabidopsis thaliana with 4 samples.

Results

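Of 31189 annotated transposable elements (TEs) of Arabidopsis thaliana counted for small RNA reads, 66 carried at least as many reads of 21 plus 22 nt as of 24 nt in control seedlings. The members were chosen by their PORI read lengths and by their total reads in both genotypes, and these values are described without a test. A TE needed at least 50 reads of 18 to 26 nt over both PORI libraries, 21 plus 22 nt reads at or above its 24 nt reads, and under 50% of its reads at 18, 19, 20, 25 and 26 nt, lengths outside the usual siRNA sizes. A TE was dropped when both PORI rpt2a libraries lay at or under 0.25 times the lower PORI value, or at or over 4 times the higher one, in CPM, counts scaled to a common total of the TE table. Of 5109 TEs with at least 50 PORI reads, 71 met the length criteria, 5 of these were dropped, all of them lower in PORI rpt2a, and 66 remained, which is 1.29% of the 5109. For comparison, 4908 TEs were dominated by 24 nt reads and 45 by reads outside the siRNA sizes.

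The libraries came from whole seedlings at 10 days after germination, 2 from the control genotype PORI and 2 from PORI rpt2a, the same background combined with rpt2a. The labels do not spell out PORI, name no rpt2a allele, and do not say whether the libraries of a genotype came from separate plants or cultures, so p-values reflect how much these libraries vary, which may be technical. RPT2a is an ATPase of the proteasome, in the cap that unfolds proteins bound for degradation. Its own small RNA reads numbered 27 and 21 in the PORI libraries and 38 and 8 in the PORI rpt2a libraries, and small RNA reads do not check the genotype.

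In Arabidopsis, most TE siRNAs are 24 nt long: RNA polymerase IV and RDR2 make their precursors, DCL3 cuts them, and AGO4 and its relatives use them to direct DNA methylation. The shorter sizes are typical of post-transcriptional silencing, in which RDR6 copies transcripts into double strands that DCL4 cuts to 21 nt and DCL2 to 22 nt. Hairpin precursors, including those of miRNAs, are also cut to these sizes, mostly to 21 nt by DCL1.

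Depth differed between the libraries. The TE tables held 715242 and 479710 reads for PORI 1 and 2, and 743563 and 228603 for PORI rpt2a 1 and 2. The last library stood apart, with the fewest reads and, at these 66 TEs, with 42.3% of its reads at 18 to 20 nt against 11.6%, 16.3% and 16.2% in the other libraries in the order PORI 1, PORI 2 and PORI rpt2a 1. It had no read at 12 of the 66 TEs, where the other 3 libraries had none at 1, 2 and 0. The part of depth and of this length profile in the results was not tested, and the main values are also given without this library.

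The 66 TEs differed widely in abundance. They held 20572 and 16085 reads in PORI 1 and 2, and 15690 and 6863 in PORI rpt2a 1 and 2, which is 2.88%, 3.35%, 2.11% and 3.0% of all TE reads. Over both PORI libraries a member had 50 to 11850 reads with a median of 108, and 32 members had under 100. The most read TE, AT4TE34435, held 32.3% of the PORI reads of all 66, the top 2 held 58.1% and the top 10 held 78.7%. Sums over the members therefore mostly describe AT4TE34435 and AT4TE14145, and the main sums are also given without them.

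Length profiles in PORI chose the members and are described here without a test. The 21 plus 22 nt reads made up 19.2% to 94.2% of a member's reads with a median of 35.4%. A profile flat over the 9 lengths would give 22.2%, and 24 of the 66 TEs lay under 30%. The single most frequent length was 24 nt in 31 members, 22 nt in 16, 21 nt in 12, 23 nt in 5, and 18 nt and 20 nt in 1 each. In 36 of the 66 TEs the 24 nt reads were at least as many as the 21 nt reads and as the 22 nt reads taken singly, so that these TEs met the criterion only through the sum of both shorter sizes. The 66 TEs are thus not uniformly rich in 21 and 22 nt reads, and the name holds best for 11 of them.

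Members were placed in 3 shapes after their values were seen. In 11 TEs the 21 plus 22 nt reads reached 50% of the reads, and these are called concentrated. In 25 TEs the lengths outside the siRNA sizes reached 40%, and these are called spread. The other 30 TEs are called mixed. The heat map of read lengths shows the shapes as blocks.

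**Figure D1:**
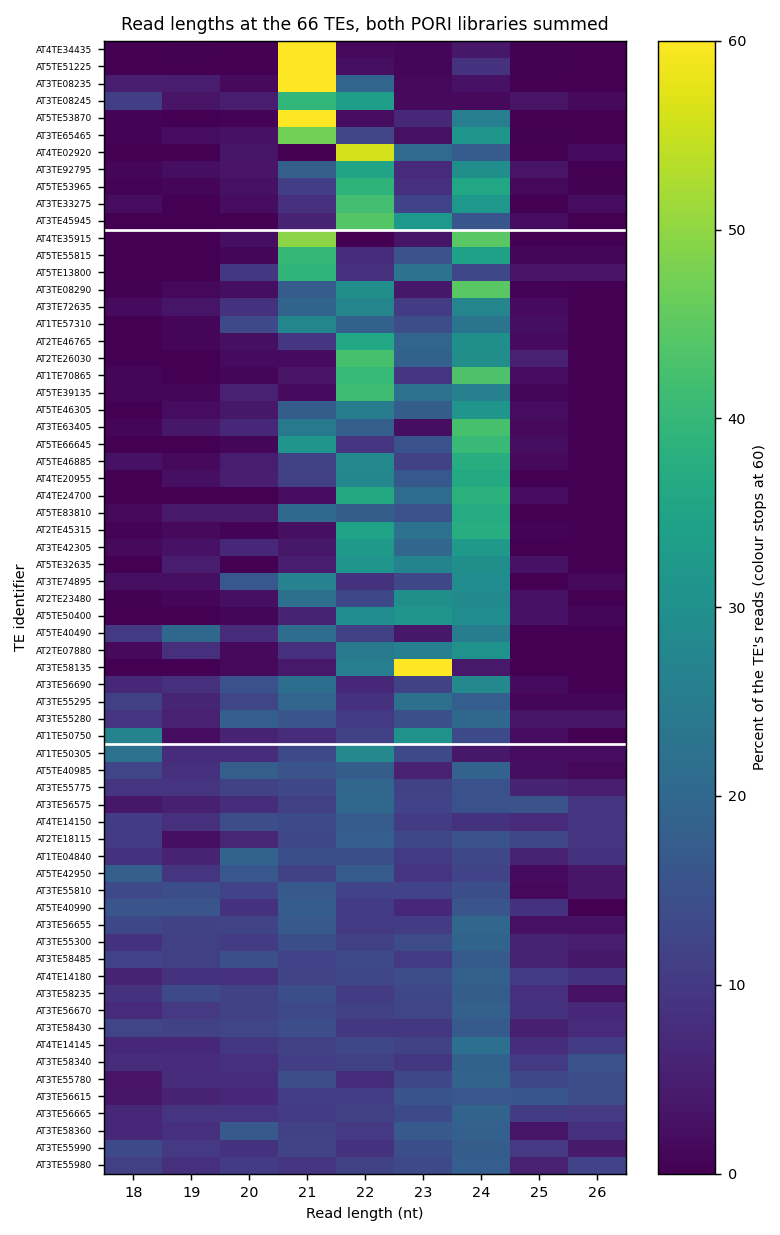
Percent of each TE's PORI reads (colour, both libraries summed, colour stops at 60) at each read length from 18 to 26 nt, for the 66 TEs; white lines separate the concentrated (top, n = 11), mixed (n = 30) and spread (bottom, n = 25) shapes. The concentrated TEs peak at 21 or 22 nt, some with a second bright column at 24 nt, while the spread TEs have reads at most lengths, with 24 nt the most frequent in 16 of 25.

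The concentrated TEs held 14387 PORI reads. Their 21 plus 22 nt share was 89.5% and 90.6% in the control libraries and 90.7% and 91.8% in the mutant libraries, and lengths outside the siRNA sizes took 1.92% to 2.14% in every library. Of the 11 TEs, 6 peaked at 21 nt and 5 at 22 nt, and 6 had identifiers that begin with AT3. AT4TE34435 held 11850 of these PORI reads, and without it the 21 plus 22 nt share of the other 10 TEs was 69.8% in each PORI library and 67.0% and 79.7% in the mutant libraries, the last from 172 reads. AT5TE51225 and AT3TE08245 had no read in PORI rpt2a 2.

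AT4TE34435 dominated the concentrated group. Its PORI reads comprised 11009 of 21 nt, 158 of 22 nt and 457 of 24 nt. Its counts were 7150 and 4700 in PORI and 4671 and 435 in PORI rpt2a, which is 9997, 9798, 6282 and 1903 CPM. Both mutant libraries were lower than both PORI libraries, and the mutant libraries differed from each other more than the PORI libraries did. The edgeR log2 fold change was -0.87 ± 0.69 (SE), and -0.28 without PORI rpt2a 2. Its 21 plus 22 nt share was 93.7%, 95.1%, 95.7% and 96.6%.

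The counts of AT4TE34435 nearly matched those of a miRNA locus. The gene table's MIR5026 entry (AT4G06075) held 7443, 4900, 4846 and 456 reads, and summed absolute differences over all libraries and lengths were 1.99% of the reads of both entries. The miRNA table's miR5026 held 6886, 4582, 4552 and 430 reads, with 1.51% by the same measure. The most read of the 66 TEs and this miRNA locus cannot be told apart in these counts. miR5026 itself had a log2 fold change of -0.61 ± 0.82 with an edgeR adjusted p of 0.861.

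AT5TE51225 and AT3TE08235 were the next most one-sided of the concentrated TEs with at least 200 PORI reads. AT5TE51225 had 457 reads of 21 nt, 13 of 22 nt and 46 of 24 nt in PORI, and its counts were 333, 193, 162 and 0, which is 466, 402, 218 and 0 CPM. Its log2 fold change was -1.51 ± 1.07, and -0.62 without PORI rpt2a 2, where 3 reads would have been 13.1 CPM. Its mutant libraries were the lower ones.

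AT3TE08235 had 356 reads of 21 nt, 108 of 22 nt and 16 of 24 nt in PORI, a ratio of 29 between 21 plus 22 nt and 24 nt. Its counts were 324, 226, 150 and 74, which is 453, 471, 202 and 324 CPM. The groups did not overlap in CPM, yet the log2 fold change of -0.31 ± 0.42 was smaller than its error. It became 0.13 without PORI rpt2a 1 and -0.82 without PORI rpt2a 2, so its direction depends on the library left out. Its counts differed by 8.24% from those of AT3G06433, annotated as a transcribed pseudogene.

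AT3TE65465 and AT5TE53965 carried appreciable 24 nt reads beside the shorter ones. AT3TE65465 had 251, 67 and 167 PORI reads of 21, 22 and 24 nt, and its CPM values were 412, 492, 301 and 289. AT5TE53965 had 47, 165 and 152, the 22 nt reads being the most frequent, and its CPM values were 327, 392, 242 and 100.6. In both TEs each mutant library lay under each PORI library. Their log2 fold changes were -0.13 ± 0.34 and -0.61 ± 0.41, the first smaller than its error and the second larger, and edgeR called neither. Without PORI rpt2a 2 they were -0.21 and -0.20. The value of AT3TE65465 became 0.08 without PORI 2.

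The remaining concentrated TEs were sparsely read, and they are named here after their values were seen. AT5TE53870 peaked at 21 nt with 194 PORI reads, and AT3TE08245, with 63, had the highest ratio to 24 nt reads of all members, 46. AT4TE02920 had no 21 nt read in PORI, while 56.1% of its 57 reads were of 22 nt. AT3TE92795, AT3TE33275 and AT3TE45945 peaked at 22 nt with 94, 50 and 50 PORI reads, and each had 1 or 2 reads in PORI rpt2a 2.

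The mixed TEs held 5034 PORI reads and combined the shorter sizes with 24 nt reads. Their 21 plus 22 nt share was 42.4% and 40.4% in PORI and 43.6% and 38.8% in PORI rpt2a. Their 24 nt share was 36.5% and 35.0% against 31.4% and 22.6%, and the lengths outside the siRNA sizes took 8.74%, 10.6%, 10.8% and 28.7%. In these sums the mutant libraries were lower in 24 nt share, and PORI rpt2a 2 differed most through the lengths outside the siRNA sizes. AT3TE08290 alone held 2064 of the PORI reads, and its 24 nt reads numbered 579, 342, 151 and 26. With it taken out of the sums, PORI rpt2a 1 was not lower in 24 nt share than either PORI library, and PORI rpt2a 2 was still the lowest. The lower share of PORI rpt2a 1 thus rested on this TE.

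AT3TE08290 was the most read of the mixed TEs. In PORI it had 354, 614 and 921 reads of 21, 22 and 24 nt. Its counts were 1306, 758, 450 and 64, which is 1826, 1580, 605 and 280 CPM, with both mutant libraries well under both PORI libraries. The log2 fold change was -1.49 ± 0.42, and -1.12 without PORI rpt2a 2. Its 21 plus 22 nt share was 46.9% and 47.0% in PORI and 55.6% and 57.8% in PORI rpt2a, higher in both mutant libraries than in both PORI libraries.

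AT2TE23480 and AT3TE63405 had no read in PORI rpt2a 2. AT2TE23480 had 152, 123, 86 and 0 reads and peaked at 23 nt, with 82 of its 275 PORI reads. Its counts differed by 4.87% from those of the protein-coding gene XYP2 (AT2G13820). AT3TE63405 had 80, 52, 24 and 0 reads, a log2 fold change of -2.07 ± 0.87, or -1.39 without PORI rpt2a 2, and counts that differed by 4.49% from those of AT3G43828_TEG.

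The spread TEs held 17236 PORI reads, 9457 of them at AT4TE14145. Their 21 plus 22 nt share was 23.7% and 25.6% in PORI and 25.5% and 26.6% in PORI rpt2a, close to the 22.2% of a flat profile. Reads of 18 to 20 nt took 23%, 27.8%, 28.4% and 48.1%, and 24 nt reads 22.3%, 17.3%, 21.2% and 9.93%. Without AT4TE14145 the 21 plus 22 nt share was 25.1%, 25.7%, 26.5% and 25.3%, and the 18 to 20 nt share 25.9%, 29.98%, 33.5% and 48.9%. In PORI 24 nt was the most frequent length in 16 of the 25.

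AT4TE14145 was the second most read of all 66 TEs. It had 1070, 1201 and 2078 PORI reads of 21, 22 and 24 nt, and 42.1% of its reads lay outside the siRNA sizes. Its counts were 4494, 4963, 4617 and 4439, which is 6283, 10346, 6209 and 19418 CPM. The raw counts were nearly even although PORI rpt2a 2 had the smallest total, so this TE took a larger share of that library's reads. The reason for the larger share was not tested. The groups overlapped, and the log2 fold change of 1.20 ± 0.91 became -0.06 without that library.

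Of the neighbouring identifiers, AT4TE14180 was lower in both mutant libraries, while AT4TE14150 had the libraries in the same CPM order as AT4TE14145. AT4TE14180 had 524, 322, 192 and 0 reads and a log2 fold change of -1.97 ± 1.10, or -1.07 without PORI rpt2a 2. AT4TE14150 had 213, 163, 56 and 84 reads, which is 298, 340, 75.3 and 367 CPM. Its log2 fold change of 0.01 ± 0.77 became -1.71 without PORI rpt2a 2. AT4TE14155, with 254, 0, 0 and 0 reads, was the most read of the 5 TEs that the fold limit dropped.

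Of the 66 identifiers, 31 (47.0%) begin with AT3, against 21.1% of the 24 nt dominated TEs and 20.7% of the table. Of the 66 TEs, 20 fall in the run of identifiers from AT3TE55280 to AT3TE58485, a stretch chosen after the values were seen. The run holds 596 TEs, of which 117 had at least 50 PORI reads, and these comprised 20 members, 62 TEs dominated by 24 nt reads, 27 outside the siRNA sizes and 8 past the fold limit. TE coordinates were not used here, so the identifiers give an order and not a distance.

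The run's members were mostly of the spread shape, 16 of 20. Their median share outside the siRNA sizes was 44.6%, against 8.84% for the other 46 members, and their median 21 plus 22 nt share was 25.1%, against 42.0%. AT3TE58340 had 447, 642, 854 and 485 reads and a log2 fold change of 1.27 ± 0.61, and its groups overlapped. That value was 0.60 without PORI rpt2a 2, 2.00 without PORI 2 and 0.49 with library sizes from all 3 tables. AT3TE56615 had 568, 324, 165 and 15 reads, which is 794, 675, 222 and 65.6 CPM, and a log2 fold change of -1.88 ± 0.49, or -1.36 without PORI rpt2a 2.

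Other well read TEs of the run were lower in both mutant libraries. AT3TE56665 had 469, 332, 273 and 34 reads and AT3TE56670 had 360, 394, 341 and 12, with log2 fold changes of -0.93 ± 0.41 and -0.96 ± 0.77. AT3TE56655 had 359, 181, 190 and 31 reads and a log2 fold change of -0.70 ± 0.37. Without PORI rpt2a 2 these were -0.50, -0.16 and -0.41. Within the run, members therefore lay on both sides of 0.

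The thresholds passed close to some members. AT2TE45315 had 75 reads of 21 plus 22 nt and 75 of 24 nt in PORI, and AT3TE63405 had 56 and 56, while AT3TE65065, with 61 and 63, and AT5TE79680, with 60 and 62, were just outside. The share outside the siRNA sizes was 49.7% for AT4TE14150, a member, and 50.2% for AT3TE58405, which was not. The criterion held at equality for 6 members, and 18 members had at least 2 times as many 21 plus 22 nt as 24 nt reads.

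The PORI rpt2a libraries were not used to judge the lengths, so they show how far this order of the lengths recurred. A flat profile would also meet the criterion, since both shorter lengths are summed against 24 nt alone. The 25 spread TEs lay close to a flat profile in this sum, so for them meeting it shows no excess of 21 and 22 nt reads. Among members with at least 10 reads in a library, 21 plus 22 nt reads were at or above 24 nt reads in 52 of 65 (80%) in PORI rpt2a 1 and in 30 of 34 (88.2%) in PORI rpt2a 2. In the single PORI libraries this held for 53 of 64 and 55 of 63. Of the 34 members with at least 10 reads in both mutant libraries, 25 met it in both. Of the 24 nt dominated TEs, 1.69% met it in PORI rpt2a 1 and 16.4% in PORI rpt2a 2, against 0.265% and 0.963% in PORI.

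In 4 members, chosen in PORI, 24 nt reads exceeded the shorter ones in both mutant libraries. These were AT3TE92795, AT3TE74895, AT5TE40490 and AT2TE07880. Each had 62 to 94 PORI reads and 1 to 19 reads in PORI rpt2a 2. AT5TE40490 had 45, 34, 53 and 19 reads, and the other 3 had 1, 6 and 1 reads in PORI rpt2a 2, so the order of the lengths rests there on few reads.

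**Figure D2:**
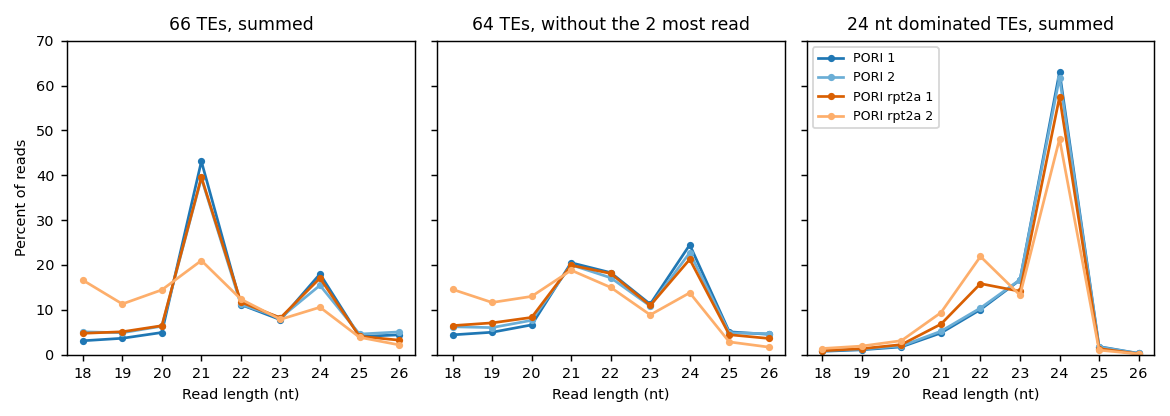
Percent of summed reads (y axis) at each read length in nt (x axis) in each library (colours), for the 66 TEs, for 64 of them without AT4TE34435 and AT4TE14145, and for the 24 nt dominated TEs. In the 66 TEs 21 nt is the highest point in all 4 libraries, and PORI rpt2a 2 has the most reads at 18 to 20 nt.

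Summed over the 66 TEs, 21 plus 22 nt reads made up 54.2% and 50.5% in the control and 51.2% and 33.3% in the mutant. Without the 2 most read TEs the shares were 38.7%, 37.1%, 38.0% and 33.8%. PORI rpt2a 2 was the lowest library with and without these TEs and also in the median over members (28.1% against 36.0%, 36.1% and 33.9%), and the size of the gap rested on the 2 TEs, of which the 21 nt rich AT4TE34435 had its lowest CPM there and AT4TE14145 its highest. The rule used the PORI lengths, and this difference is given without a test.

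In this summed share the genotypes overlapped in the 66 TEs and did not overlap in the 24 nt dominated TEs. Their 21 plus 22 nt reads made up 14.8% and 15.6% in PORI and 22.6% and 31.2% in PORI rpt2a, higher in both mutant libraries. Summed 21 nt reads of the 66 TEs were 12397 and 13183 CPM in the control libraries and 8348 and 6295 CPM in the mutant libraries, while those of the 24 nt dominated TEs were 37523, 40610, 56210 and 78520 CPM. Summed 22 nt reads of the 66 TEs were 3203, 3750, 2465 and 3705 CPM, with overlapping groups, and those of the 24 nt dominated TEs 78369, 81028, 131111 and 183725 CPM. In CPM, the 66 TEs were lower in the mutant at 21 nt, where the 24 nt dominated TEs were higher. Both sets were chosen by their 21, 22 and 24 nt reads in these same PORI libraries. The part of that choice in the opposite directions was not tested, so the contrast is a description. The 21 nt sum of the 66 TEs includes AT4TE34435, whose counts nearly match those of miR5026. In whole seedlings, fewer cells with these small RNAs and less small RNA per cell cannot be told apart.

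Without the 2 most read TEs both sizes were lower in CPM in both mutant libraries. The 21 nt reads were then 2556 and 2677 CPM in the control and 1715 and 1636 CPM in the mutant, and the 22 nt reads 2280, 2293, 1557 and 1304 CPM. The groups did not overlap in CPM at either length. The TMM factors used for the fold changes were 1.21 and 1.16 in PORI and 0.95 and 0.75 in PORI rpt2a. On library sizes scaled by them the 21 nt groups overlapped and the 22 nt groups did not, so the 21 nt result depends on the scaling.

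How the shorter reads divide between 21 and 22 nt was not itself used by the rule, although their sum in PORI was. The PORI libraries that chose both sets are among those compared, and every library holds the same TEs. A common sign in all libraries was therefore likely beforehand. The p-value below concerns these libraries and not other TEs, and no conclusion is drawn from it. The sum over the members is also led by AT4TE34435, whose counts nearly match those of miR5026. The 22 nt share of the 21 plus 22 nt reads of the 66 TEs was 20.5%, 22.1%, 22.8% and 37.1%, against 67.6%, 66.6%, 70% and 70.1% in the 24 nt dominated TEs. The difference within a library was -42.9 percentage points on average, with the 66 TEs lower in 4 of 4 libraries, and the exact two-sided paired permutation p of 0.13 is the smallest that 4 libraries allow. It was -22.3 points without the 2 most read TEs. As a median over single TEs in PORI, the 22 nt share was 51.9% for the 66 and 66.7% for the 24 nt dominated TEs. It was 45.7% for the concentrated, 59.5% for the mixed and 50.9% for the spread TEs. A flat profile has equal 21 and 22 nt reads, so the value of the spread TEs shows no preference between these sizes.

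**Figure D3:**
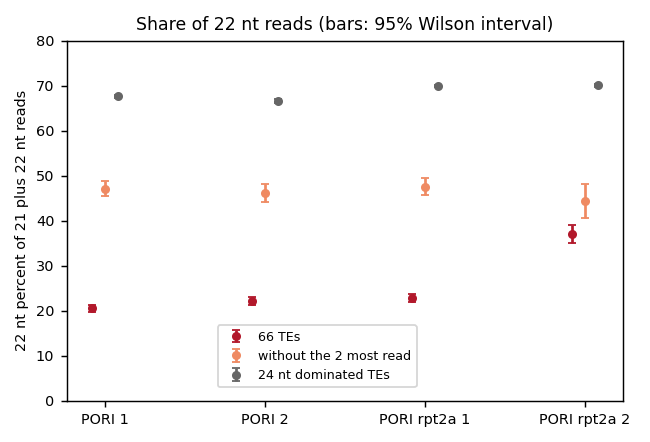
The 22 nt reads as a percent of 21 plus 22 nt reads (y axis) in each library (x axis), for the 66 TEs, for 64 without the 2 most read, and for the 24 nt dominated TEs; bars are 95% Wilson intervals, which cover counting error only. The 66 TEs lie below the 24 nt dominated TEs in each library, and PORI rpt2a 2 departs from the other 3 only where the 2 most read TEs are included.

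Single members differed in this division, and some of them kept to the same side of it across libraries. The 22 nt share of AT4TE34435 was 1.54% and 1.23% in PORI and 1.54% and 1.43% in PORI rpt2a. That of AT3TE08290 was 63.4%, 63.5%, 63.6% and 56.8%, and that of AT5TE53965 80.3%, 74.4%, 69.7% and 76.9%. AT4TE34435 was at the 21 nt end in all 4 libraries, and the other 2 were on the 22 nt side in all 4. Not every member kept its side. The share of AT5TE40985, named here after its values were seen, was 54.1% and 52.6% in PORI and 39.4% and 38.8% in PORI rpt2a. In PORI 29 members had more 21 nt reads, 36 more 22 nt reads and 1 equal numbers.

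Between genotypes the 22 nt share of the 66 TEs was 8.59 percentage points higher in PORI rpt2a. The exact two-sided permutation p was 0.33, the smallest that 2 against 2 libraries allow. The difference rested on the 2 most read TEs, since it was -0.676 points without them, and on PORI rpt2a 2, since it was 1.46 points without that library. In a fit per TE of the change in 22 nt against 21 nt reads, edgeR called 0 of the 49 members tested (0% of the 2064 TEs tested), with 5 at an unadjusted p under 0.05, a smallest adjusted p of 0.967 and a median of -0.22 against 0.02 over all tested TEs. DESeq2 also called 0.

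For the reads of a TE over all lengths, the rule used the genotype contrast, so what follows describes the members and supports nothing. All 66 passed the low-count filter, and edgeR called 0 of them (0% of 8219 tested TEs), with 8 at an unadjusted p under 0.05. DESeq2 called 5, 3 higher and 2 lower, against 7.54% of all tested TEs. Log2 fold changes ranged from -2.24 to 2.47 with a median of -0.24, against -0.13 over all tested TEs. Without PORI rpt2a 1, which leaves the shallow library alone for the mutant, edgeR called 45. The counts were 10 without PORI rpt2a 2, and 1 and 2 without PORI 1 and PORI 2, in fits that assume the lone library to vary like the other group.

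In CPM, both mutant libraries lay under both PORI libraries in 28 members (42.4%; background 48.1%) and over them in 7 (10.6%; background 21.1%), and the groups overlapped in 31. Of the concentrated TEs 8 were lower, 0 higher and 3 overlapped, with a median log2 fold change of -0.68. Their median in PORI rpt2a 2 was 8.75 CPM, under the 13.1 CPM of 3 reads. Among the lower ones, AT5TE51225, AT3TE33275, AT3TE45945 and AT3TE92795 had 0, 1, 2 and 1 reads there. Of the mixed TEs 13 were lower and 5 higher, with a median of -0.24, and of the spread TEs 7 were lower and 2 higher, with a median of 0.12. CPM divides by the TE table's total, while the fold changes use TMM scaling, which is why a TE can be lower in CPM with a fold change near 0.

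**Figure D4:**
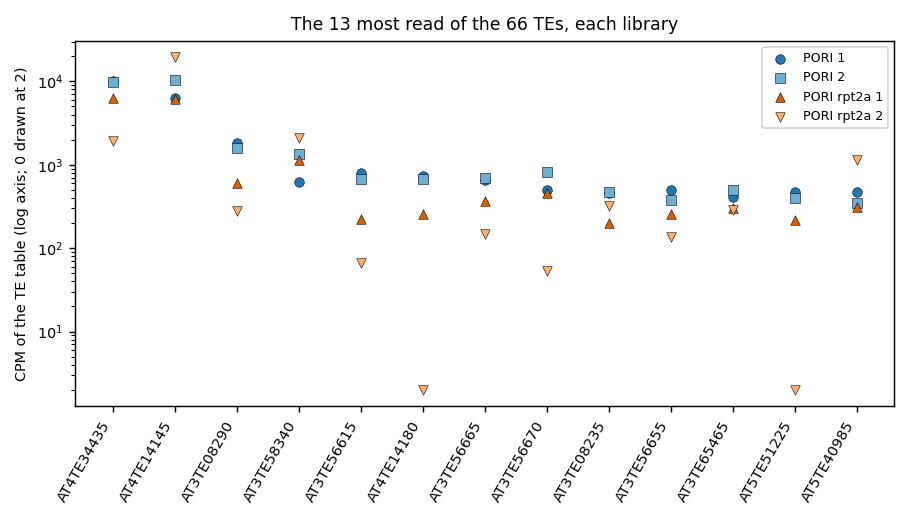
CPM of the TE table (log axis, 0 drawn at 2) in each library (symbols) for the 13 most read of the 66 TEs, ordered by PORI reads from the left. PORI rpt2a 2 is the highest library for AT4TE14145, AT3TE58340 and AT5TE40985 and the lowest for most others.

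The libraries of PORI rpt2a differed from each other more than those of PORI. The median absolute log2 difference between replicates, at CPM plus 1, was 0.41 in PORI and 1.76 in PORI rpt2a for the 66 TEs, and 0.27 and 0.78 for the 24 nt dominated TEs. Mutant replicates lay at least 4-fold apart in 29 members, and PORI replicates in 6. PORI rpt2a 2 was under PORI rpt2a 1 in CPM in 44 of the 66 TEs.

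The rule also used the PORI counts of 21, 22 and 24 nt reads, so the calls per length below describe the members and support nothing either. At 21 nt, 33 of the 66 TEs passed the low-count filter and edgeR called 4 higher and 0 lower in PORI rpt2a (48.2% of 1040 tested TEs were called higher and 0.288% lower). The median log2 fold change was -0.14 for the members and 1.70 for all tested TEs. At 22 nt, 38 passed, with 3 called higher and 2 lower (54.1% and 0.558% of 1970), and the medians were -0.29 and 1.65. TEs with few 21 or 22 nt reads in PORI passed these filters only where the mutant libraries held more, so the medians of all tested TEs are tilted upwards. With no filter, the medians were -0.22 at 21 nt and -0.08 at 22 nt for all 66 TEs, and 0.51 and 0.40 for the 24 nt dominated TEs with at least 1 read. With TMM factors taken within a read length, which centre the tested TEs near 0, the medians were -0.12 and -0.02 for all tested TEs and -1.95 at both lengths for the members, where the value near 0 of all tested TEs is set by this scaling. With library sizes from all 3 tables the medians of all tested TEs were 0.97 and 0.95 and those of the members -0.79 and -0.80, and with DESeq2 size factors 1.66 and 1.61 against -0.23 and -0.28.

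**Figure D5:**
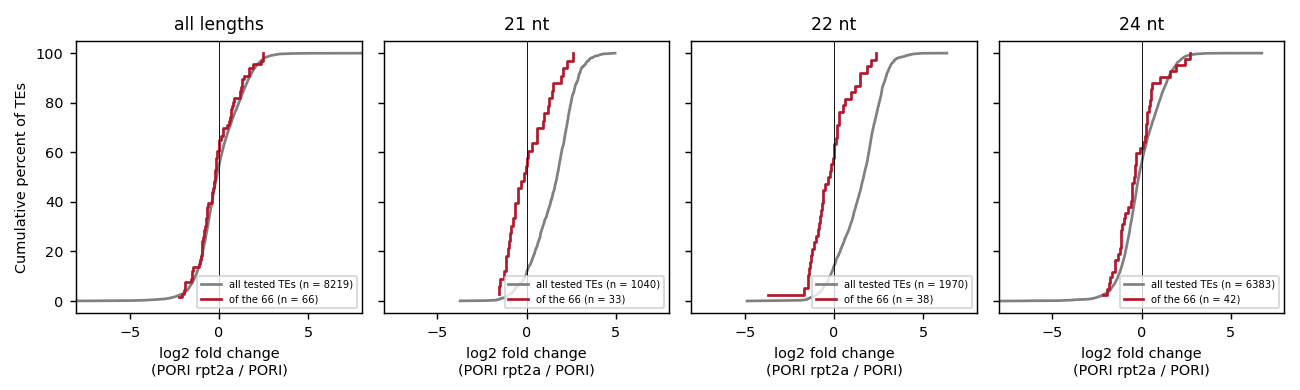
Cumulative percent of TEs (y axis) by log2 fold change, PORI rpt2a over PORI (x axis), for reads of all lengths, 21 nt, 22 nt and 24 nt, in all tested TEs (grey) and those of the 66 that passed the filter (red); a few outlying TEs lie beyond the x axis. The curves nearly coincide for all lengths and for 24 nt, and the red curves lie to the left at 21 and 22 nt, with medians of -0.14 and -0.29 against 1.70 and 1.65.

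In CPM, 26 of the 66 TEs were lower at 21 nt in both mutant libraries (8.85% of tested TEs) and 6 were higher (66.1%). At 22 nt 27 were lower (10.9%) and 5 higher (65.7%). Among all 4908 24 nt dominated TEs, tested or not, 21.4% were lower and 24.7% higher at 21 nt, and 24.8% and 29.1% at 22 nt. The rule favoured TEs with many 21 and 22 nt reads in PORI, and the part of that choice in the lower mutant values was not tested.

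The members called at 21 or 22 nt are named here after their values were seen. AT4TE20955 had 5, 4, 14 and 9 reads of 21 nt and 9, 13, 47 and 18 of 22 nt, with log2 fold changes of 2.26 ± 0.80 and 2.33 ± 0.69. AT5TE46305 had 4, 5, 21 and 10 reads of 21 nt and 4, 9, 15 and 13 of 22 nt, with 2.59 ± 0.80 and 2.07 ± 0.74. Both were higher at both lengths. At 21 nt these TEs and AT3TE58360, and at 22 nt AT5TE46305, had under 10 reads in each PORI library. They passed the filter only through the mutant libraries where they were high. The filter scales its minimum to library size, and at 22 nt AT4TE20955 and AT5TE46885 lay under it in PORI 1. They too passed through the mutant libraries where they were high, so every member called higher at 22 nt passed in this way. The counts of AT4TE20955 differed by 7.41% from those of AT4G08103_TEG.

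The other members were called at 1 length each. AT5TE55815 had 24, 18, 33 and 33 reads of 21 nt, and AT3TE58360 had 7, 0, 15 and 3, with log2 fold changes of 1.91 ± 0.79 and 2.04 ± 0.72. At 22 nt AT5TE46885 had 12, 7, 27 and 11 reads and was higher by 1.84 ± 0.69. AT3TE63405 had 14, 10, 1 and 0 reads of 22 nt and AT1TE70865 had 19, 20, 7 and 1, with -3.68 ± 1.00 and -1.66 ± 0.74. These counts are low in every library. Without PORI 1 or without PORI 2 no member was called at 21 or 22 nt, without PORI rpt2a 1 there were 21 and 17 calls, and without PORI rpt2a 2 there were 3 and 8.

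At 24 nt, 42 members passed the filter and edgeR called 0 (0% of 6383), with 7 at an unadjusted p under 0.05, and DESeq2 called 2. The median log2 fold change was -0.41 for the members and -0.16 for all tested TEs. In CPM, 33 of the 66 TEs were lower in both mutant libraries (48% of tested TEs) and 3 higher (19.3%). Without PORI rpt2a 1 edgeR called 21, and without PORI rpt2a 2 it called 6.

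The abundance of the 66 TEs relative to the 24 nt dominated TEs is a description too, since the rule limited the total fold change. The log2 ratio of summed reads was -4.76 and -4.54 in PORI and -5.30 and -4.81 in PORI rpt2a, lower in both mutant libraries by a mean of 0.40, though PORI 1 and PORI rpt2a 2 lay close together. The difference was -0.67 without the 2 most read TEs, -0.64 without PORI rpt2a 2, -0.15 without PORI rpt2a 1 and -0.02 as a median over the members, so its size depends on which TEs and libraries are summed.

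Genes of the siRNA machinery were looked up in the gene table, where values are small RNA reads of a gene and not its mRNA level. Of 22 genes, 4 passed the low-count filter and edgeR called 0 in either direction (0.0239% of 8380 tested genes), with 1 at an unadjusted p under 0.05, and DESeq2 called 0. DCL1, which makes miRNAs, had 72, 95, 29 and 19 reads and a log2 fold change of -1.33 ± 0.50 with an edgeR adjusted p of 0.190. MET1, the maintenance methyltransferase for CG sites, had 17, 12, 4 and 4 reads and -1.36 ± 0.63. AGO1 and AGO2, which bind miRNAs and 21 nt siRNAs, had -0.50 ± 0.43 and -0.70 ± 0.44.

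The other genes of the list, among them DCL2, DCL4, RDR6 and SGS3 of the 21 and 22 nt pathway, had too few reads to test. DCL2 had 4, 4, 3 and 2 reads and RDR6 3, 3, 2 and 0. Of 3 miRNAs named for targeting TEs, 2 passed the filter and edgeR called 0 (0% of 109 tested miRNAs), with 0 at an unadjusted p under 0.05, and DESeq2 called 0. miR845a, which targets the primer binding site of LTR retrotransposons, had 1138, 862, 1701 and 243 reads and a log2 fold change of 0.59 ± 0.75, and miR845b had 16, 7, 27 and 0.

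Of the 66 TEs, 6, with AT4TE34435 among them, had a gene entry whose counts differed by at most 10%, a limit set after the values were seen. AT5TE13800, with 25, 36, 8 and 9 reads, differed by 6.02% from MIR5629 (AT5G01915). None of the 66 held exactly the counts of a gene or miRNA entry. For these 6 TEs the same reads can stand in 2 tables, so their values do not add to those of the matching genes.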

How the data were processed

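The authors deposited raw whole-number counts per feature and read length from 18 to 26 nt, in TE, gene and miRNA tables per library, per the file headers. Small RNAs were gel-purified from TRIzol-extracted RNA, per the labels' protocols. HTSeq, DESeq2, cutadapt 1.9.1, CASAVA 1.8.2 and FastQC 0.11.2 were used with TAIR10, per the submitters' processing notes. The aligner, strand use and treatment of multiply mapping reads are not given in the sources used here, so reads of near-identical TEs are uncertain.

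Counts over the 3 tables ranged from 3241463 to 5884528 per library. They were tested with edgeR 4.0.16 (R 4.3.3), quasi-likelihood, genotype as the only term, TMM factors of the TE totals for every read length, filterByExpr (at least 10 counts and 15 in total), and p-values adjusted by Benjamini-Hochberg over all tested TEs, with a threshold of 0.05. The 22 against 21 nt fit added a library term. DESeq2 1.42.0 was an alternative. The steps were checked on simulated data. Intervals and floors (3 counts) cover counting error alone, because PCR copies of a molecule cannot be recognised without identifiers. Other values and plots came from Python 3.11.15, pandas 2.3.3, numpy 2.4.6, scipy 1.17.1 and matplotlib 3.10.9. Gene names came from a TAIR10.1 table by locus tag.

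The members and gene lists were chosen with earlier results of these data known. Named TEs followed a rule (most reads, most one-sided lengths, largest differences, threshold neighbours), and TEs outside it are marked as named after their values were seen. The likeness rule asked for identical counts, and the 10% limit was added after seeing none.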

Additional observations from a re-analysis of the deposited data

How the results depend on the processing

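Each group has 2 libraries, and PORI rpt2a 2 is the shallowest. DESeq2 called 5, 1, 1 and 2 members for all lengths, 21, 22 and 24 nt, and a fit without the low-count filter called 12, 0, 1 and 4, against 0, 4, 5 and 0. Leaving out 1 library gave 1 to 45, 0 to 21, 0 to 17 and 0 to 21. With library sizes taken from all 3 tables there was 1 call at 21 nt, and the median over all lengths moved from -0.13 to -0.71 for all tested TEs and from -0.24 to -0.82 for the members. TMM within the read length, added after seeing the data, gave 0 at 21 nt and 22 at 22 nt, all lower. The cause of these changes was not tested. The 22 against 21 nt fit kept 0 calls throughout. The genotype difference in 22 nt share turned to -2.77 points as a median over members and -0.676 without the 2 most read, the latter added after seeing the data. The list counts stayed at 0 under DESeq2. A minimum of 100 reads left 34 members, a ratio of 1.5 left 28, and no fold limit 71. Of the 22 TEs the rule named, 7 changed sign in at least 1 alternative, 5 of them without PORI rpt2a 2.

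The labels share replicate numbers, and the deviations of same-numbered libraries correlated at 0.0934 over all tested TEs and 0.191 over the members, which with 2 pairs does not show pairing. The replicate block gave 0, 5, 7 and 2 calls for all lengths, 21, 22 and 24 nt.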
